A study of Danio rerio with 4 samples.

Results

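In sorted zebrafish cells, 110754 regions of open chromatin were called in every library. Of these, 649 ranked at least 25 percentile points higher in both periderm libraries than in both libraries of the remaining cells. These 649 regions are the subject here. They were found by joining the peaks of 4 lists wherever peaks shared at least 1 bp, giving each peak its percentile by enrichment within its own list, and letting each region take its highest peak from each list. A region was kept when it had a peak in all 4 lists and its lower percentile in the GFP-positive lists exceeded its higher percentile in the GFP-negative lists by 25 points or more. The kept regions are 0.586% of the shared regions and 0.0934% of all 694637 merged regions, and they cover 152.666 kb. The values of all 4 lists chose them, so their enrichment is described below and not tested.

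Embryos of the Tg(krt4:GFP) line, in which the promoter of the keratin gene krt4 drives GFP, were dissociated at the 4-somite stage and sorted by flow cytometry into GFP-positive cells, labelled periderm, and GFP-negative cells. All 4 libraries carry the same transgene, and there were 2 libraries of each kind. ATAC-seq, in which the Tn5 transposase inserts adapters into accessible DNA, was run on each, and peaks were called on short fragments that carry no nucleosome. The GFP-positive gate rests on the activity of 1 promoter, and the GFP-negative gate pools the remaining cells of the embryo. A low value there cannot be told apart from a high value in a few of its cells, of whatever type. The purity of the sort was not examined.

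Periderm is the outermost layer of the embryonic epidermis, a flat sheet of tightly joined cells that forms the first barrier of the embryo. In zebrafish it arises from the enveloping layer, the first epithelium to differentiate. Open chromatin marks enhancers and promoters, and a region that is open in several cell types may be more accessible, or accessible in more cells, in 1 of them. Peaks that are present in both populations but of unequal height are missed when regions are sorted only by presence and absence. For these zebrafish cells the study itself compared read density between the populations, which can find such peaks.

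The value deposited for each peak was read as its fold enrichment over the background of its own library. In the kept regions the median fold was 9.69 in GFP-positive replicate 1 and 9.36 in GFP-positive replicate 2, against 3.79 in GFP-negative replicate 1 and 4.08 in GFP-negative replicate 2. The middle 90% of the regions ran from 5.61 to 20.2 and from 6.09 to 18.3 in the GFP-positive lists, and from 3.03 to 4.93 and from 3.27 to 5.31 in the GFP-negative lists. The folds were not scaled between libraries, which is why ranks were used. As percentiles, the medians were 80.5 and 72.5 in the GFP-positive lists and 24.4 and 21.3 in the GFP-negative lists.

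Beside all shared regions, the kept regions differed more in their GFP-negative than in their GFP-positive ranks, values that the rule used. Their GFP-positive medians of 80.5 and 72.5 lay near those of all shared regions, 82.0 and 67.9. Their GFP-negative medians of 24.4 and 21.3 lay far below the 87.1 and 81.9 of all shared regions. Peaks of the highest rank were absent from the set, as no kept region had a GFP-positive fold above 34.2, while 5% of shared regions passed 38.8 in GFP-positive replicate 1.

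**Figure D1:**
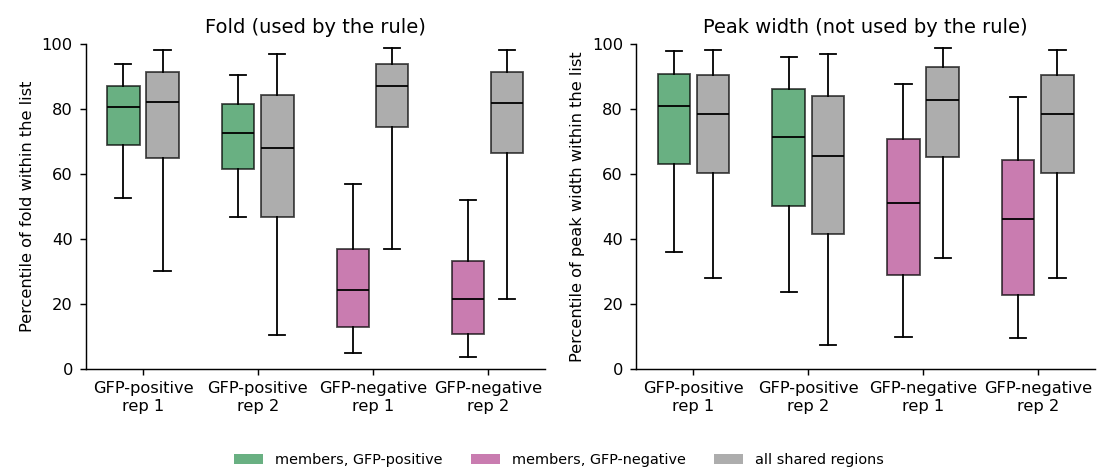
Percentile of fold (left) and of peak width (right) within each list, for the 649 kept regions (green in GFP-positive, purple in GFP-negative libraries) and for all 110754 shared regions (grey). Boxes span the quartiles with the median as a line, and whiskers run from the 5th to the 95th percentile of the regions. In the kept regions the fold medians are 80.5 and 72.5 in GFP-positive and 24.4 and 21.3 in GFP-negative libraries, and their GFP-positive boxes lie close to the grey ones.

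How close the GFP-negative values lay to the smallest listed ones can be read from their steps. Every value was a whole multiple of 1 step per list, the form the peak caller gives when it divides a pileup of tags plus 1 by a constant background plus 1. Read this way, the median pileup in the kept regions was 18 and 19 tags in the GFP-positive lists and 9 and 9 tags in the GFP-negative lists. The smallest pileup of any listed peak was 5 and 6 tags in the GFP-positive lists and 6 and 6 tags in the GFP-negative lists. The largest move that 1 tag made anywhere in a list was 13.7 and 10.3 percentile points in the GFP-positive lists. It was 12.6 and 12.0 points in the GFP-negative lists. At the median pileups of the kept regions, 1 tag more took the percentile from 80.5 to 82.0 and from 72.5 to 74.5 in the GFP-positive lists. In the GFP-negative lists, 1 tag more took it from 24.4 to 37.0 and from 21.3 to 33.3. When 1 tag was taken from each GFP-positive peak and added to each GFP-negative peak, a check chosen after seeing the data, 217 of the 649 regions (33.4%) kept a gap of 25 points. All 67 regions with a gap of 50 points or more kept it, and none of the 201 regions with a gap under 30 points did. Shifts of more than 1 tag were not tried, so the check does not measure how far counting variation could move a region.

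The gap between the groups ran from 25.0 to 79.8 points, with a median of 33.3 and quartiles of 28.5 and 40.6. On the fold scale, the lower GFP-positive fold was 1.36 to 5.14 times the higher GFP-negative fold, with a median of 1.96. It reached 2 in 310 regions (47.8%) and 3 in 67 regions, and it was under 1.5 in 72 regions. Over all shared regions the median of this ratio was 0.681. Setting the lower fold of a group over the higher fold of the other pulls the ratio down. The median folds of all shared regions were 10.2 and 8.43 in GFP-positive and 10.2 and 10.2 in GFP-negative libraries. A ratio of 2 or more was also found in 449 shared regions that the percentile gap left out, so rank and fold did not select the same regions. The 3 regions named just inside the limit, on chromosomes 22, 19 and 17, had gaps of 25.1, 25.0 and 25.0 points. The gap of the chromosome 22 region was shared by other kept regions, such as that on chromosome 2 at 38448417 to 38448644. The 3 regions just outside, on chromosomes 15, 4 and 18, had gaps of 24.98, 24.97 and 24.93 points. The region on chromosome 18 (313027 to 313439) shows that the limit does not follow fold, as it had folds of 18.4 and 28.6 in GFP-positive and 5.69 and 5.31 in GFP-negative libraries.

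The reverse rule, with GFP-negative ranks 25 points above GFP-positive ranks, kept 4574 shared regions (4.13%). Both GFP-positive ranks lay above both GFP-negative ranks in 7280 shared regions (6.57%), and the opposite order held in 44868 (40.5%). This imbalance changed with the scale. The GFP-positive lists held 336052 and 190059 peaks and the GFP-negative lists 455867 and 333588, and the median percentile of shared regions ran with list length, from 67.9 in the shortest list to 87.1 in the longest. With lists cut to equal numbers of their strongest peaks, 85573 regions were shared. Of these, 1457 (1.70%) ranked 25 points or more higher in GFP-positive and 2115 (2.47%) in GFP-negative cells. With percentiles taken among the 110754 shared regions alone, the counts at 25 points were 3245 (2.93%) and 3231 (2.92%). This scale ranks the same regions in every list, so it sets the lists to the same range. Among the 3245 were 472 of the 649 regions (72.7%). The size of the set, and its ratio to the reverse count, therefore depended on the scale of the ranks. With a library left out, peaks were needed in 3 lists only and 1 group had a single rank to pass, which is a looser rule. It kept 967 regions (0.811% of those shared by the 3 lists) without GFP-positive replicate 1 and 4031 (2.68%) without GFP-positive replicate 2. Without GFP-negative replicate 1 it kept 4792 (4.07%), and without GFP-negative replicate 2 it kept 3513 (2.87%). The part of the library in these counts cannot be told apart from that of the looser rule.

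**Figure D2:**
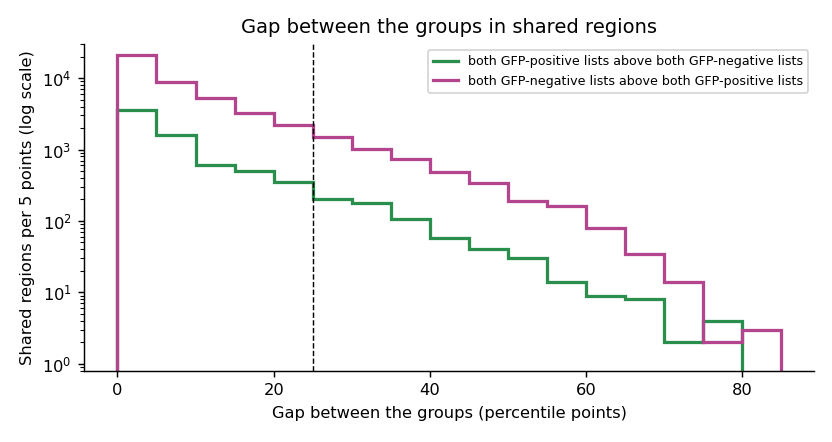
Number of shared regions (log scale) by the gap between the groups in percentile points, in bins of 5 points. The green line counts regions with both GFP-positive lists above both GFP-negative lists and the purple line the opposite order, and the dashed line marks the limit of 25 points, beyond which 649 and 4574 regions lie. Neither line has a break at the limit.

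The regions with the widest gaps were called weakly but in both GFP-negative lists. No gene annotation of the build of these coordinates (danRer7) was used, so regions are given by position, counted from 1. On chromosome 4, the region at 52261389 to 52261782 had folds of 18.4 and 21.5 in GFP-positive libraries, against 3.41 and 3.67 in GFP-negative libraries, a gap of 79.8 points. On chromosome 10, the region at 2746161 to 2746457 had folds of 18.9 and 20.1 in GFP-positive libraries and 3.41 and 3.67 in GFP-negative libraries, the highest ratio of all kept regions at 5.14. Both regions were named for their wide gaps, and had 35 to 45 implied tags in GFP-positive and 8 in each GFP-negative library. The GFP-negative peaks of the chromosome 4 region did not overlap each other, whereas those of the chromosome 10 region did.

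A further pair of regions differed more between the GFP-positive libraries. The region on chromosome 17 at 28767232 to 28767520 had folds of 10.7 and 16.4 in GFP-positive libraries, against 3.03 and 2.86 in GFP-negative libraries, where the second is the lowest value of its list. Its GFP-negative peaks did not overlap each other either. The region on chromosome 2 at 370418 to 370674 had folds of 13.8 and 20.1 in GFP-positive and 3.41 and 3.67 in GFP-negative libraries. In both, GFP-positive replicate 2 was the higher library. On chromosome 16, at 26927913 to 26928213, replicate 1 was the higher one, with folds of 15.8 and 13.6 in GFP-positive libraries and 3.03 and 3.67 in GFP-negative libraries. On chromosome 13, at 47799562 to 47799835, it was higher again, with 31.6 and 20.6 in GFP-positive and 3.41 and 4.08 in GFP-negative libraries, a ratio of 5.05. The order of the GFP-positive replicates was thus not fixed among the leading regions.

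The 6 kept regions with the highest lower GFP-positive rank had GFP-negative folds from 3.41 to 5.69 in replicate 1 and from 3.67 to 5.71 in replicate 2. On chromosome 7, the region at 34235922 to 34236415 reached folds of 25.5 and 28.1 in GFP-positive libraries and 5.31 and 5.71 in GFP-negative libraries. Its gap was 32.3 points although its fold ratio was 4.46, because a fold of 5.31 already has a percentile of 63.2 in the list of GFP-negative replicate 1. On chromosome 4, the region at 820266 to 820944 had the highest fold of the set, with 34.2 and 23.4 in GFP-positive libraries, against 3.79 and 4.90 in GFP-negative libraries. The strongest peaks of the 4 lists shared no base in it, and the strongest peaks of the GFP-negative lists did not overlap each other. On chromosome 22, the region at 21629746 to 21630126 had folds of 20.9 and 22.5 in GFP-positive and 5.69 and 4.90 in GFP-negative libraries, and its gap of 25.3 points barely passed the limit. Of the 6 regions with the highest GFP-positive rank, only the one on chromosome 4 at 52261389 to 52261782 was also among the 6 with the widest gap.

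Chromosome 5 held 39 kept regions, the largest number on any chromosome. They were 0.623% of its 6262 shared regions, near the 0.586% over all chromosomes. A pair of these 39 belonged to the same high-ranking group. The region at 8000034 to 8000195 had folds of 28.0 and 21.5 in GFP-positive libraries and 4.55 and 4.90 in GFP-negative libraries. The region at 16817643 to 16818146 had folds of 25.0 and 21.5 in GFP-positive libraries and 4.93 and 4.08 in GFP-negative libraries. Their fold ratios were 4.40 and 4.37. In the second region the strongest GFP-negative peaks did not overlap each other, and the strongest peaks of the 4 lists shared no base.

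**Figure D3:**
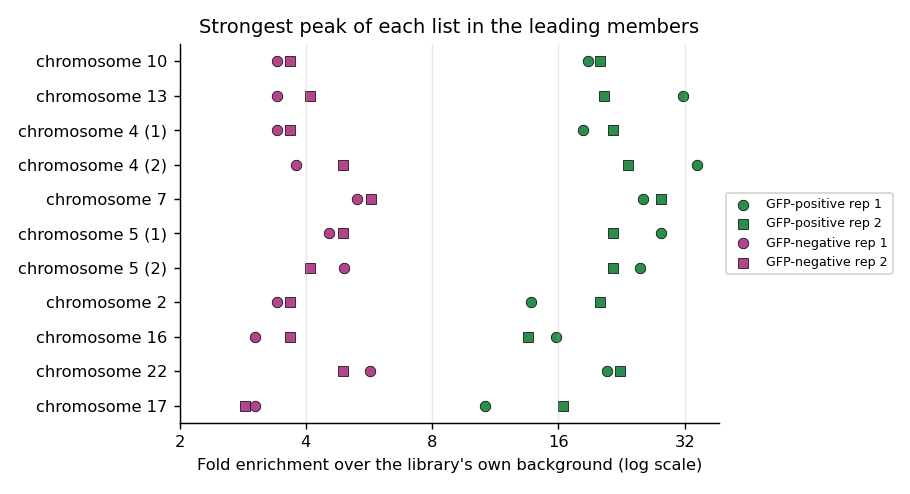
Fold enrichment (log scale) of the strongest peak of each list in the leading regions, named by chromosome and ordered by the ratio of the lower GFP-positive to the higher GFP-negative fold, from 5.14 at the top to 3.53 at the bottom. Green marks are GFP-positive and purple marks GFP-negative libraries, with circles for replicate 1 and squares for replicate 2. In every region shown both green marks lie to the right of both purple marks, which the choice of the regions fixes. In 4 of the regions shown, both on chromosome 4, the one on chromosome 17 and the second on chromosome 5, the 4 peaks shared no base.

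Because the rule used all 4 libraries, the difference was also read in a replicate whose ranks had not chosen the regions. A peak in all 4 lists was still required, so that replicate was not wholly outside the choice. Regions were chosen by a difference of 25 points in 1 replicate and read in the other. There were 6029 such regions in replicate 1 (5.44% of shared regions). In replicate 2 the GFP-positive rank was the higher one in 44.5% of them, against 22.3% of all shared regions, and it was higher by 25 points or more in 17.1%, against 4.45%. The reverse choice gave 4927 regions in replicate 2 (4.45%). In replicate 1 the GFP-positive rank was higher in 59.7% of them, against 33.3% of all shared regions, and by 25 points or more in 20.9%, against 5.44%. In both replicates the difference reached 25 points in 1031 shared regions (0.931%). A difference of 25 points needs a GFP-negative rank that is not near the top of its list. Over all shared regions the median GFP-negative ranks were 87.1 in replicate 1 and 81.9 in replicate 2, which leave little room above them. All shared regions are therefore not a matched background, and how far this bears on the contrasts was not tested.

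The held-out differences had small medians and wide spreads. For regions chosen in replicate 1, the median in replicate 2 was -3.45 points, with quartiles of -23.0 and 16.2, where all shared regions had a median of -8.53. Most of these regions thus did not have the higher GFP-positive rank in replicate 2. For regions chosen in replicate 2, the median in replicate 1 was 4.44 points, with quartiles of -9.69 and 20.3, where all shared regions had a median of -2.68. A stricter choice of 50 points raised the shares with GFP-positive higher to 50.5% of 1641 regions and 66.6% of 953 regions. With percentiles taken among shared regions alone, where 50.3% of all shared regions have the higher GFP-positive rank, the shares were 73.1% and 72.7%. With equal numbers of peaks they were 67.8% and 68.7%, against 47.9% of all shared regions. Regions share libraries and are not replicates, so these shares carry no p-value. Across shared regions the differences of the replicates had a Pearson correlation of 0.27 and a Spearman correlation of 0.32 (n = 110754 regions), given as a description since regions of a library share its depth and its list.

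**Figure D4:**
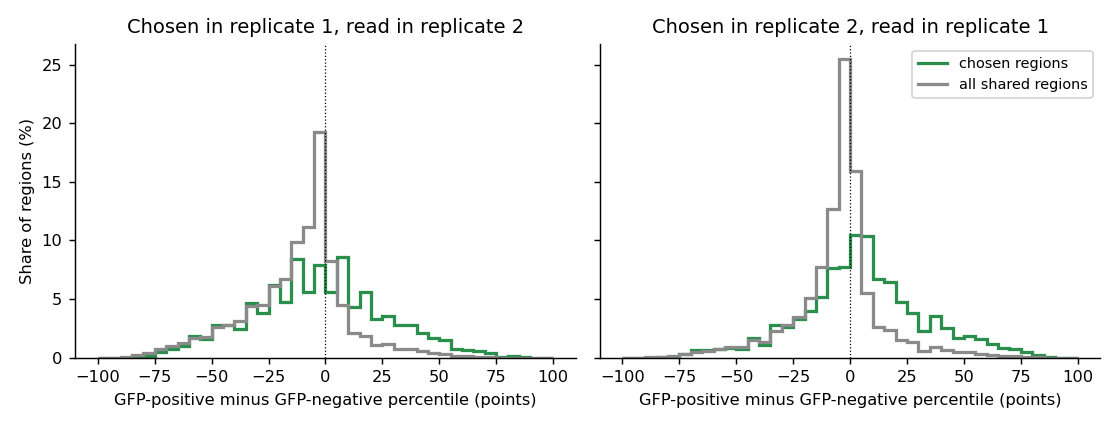
Share of regions (%) by the GFP-positive minus GFP-negative percentile difference in the replicate that did not choose them, in bins of 5 points. Green lines are regions chosen by 25 points in replicate 1 (left, 6029 regions) or replicate 2 (right, 4927 regions), and grey lines are all shared regions. The green lines have more regions above 0, 44.5% (left) and 59.7% (right), against 22.3% and 33.3% of the grey ones. The grey lines are not matched to the green ones in GFP-negative rank.

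Peak width was not used by the rule. In the kept regions the strongest peaks had median widths of 168 and 144 bp in GFP-positive libraries, against 93 and 82 bp in GFP-negative libraries. Over all shared regions the medians were 158 and 129 bp in GFP-positive and 184 and 158 bp in GFP-negative libraries. Both GFP-positive peaks were wider than both GFP-negative peaks in 386 kept regions (59.5%), against 9.03% of shared regions, and the opposite held in 23 (3.54%), against 34.4%. As percentile within the list, the median width was 76.0 ± 6.77 in GFP-positive and 48.5 ± 3.56 in GFP-negative libraries (SD, n = 2 each), a difference of 27.5 points, and the difference was 13.3 points for the regions kept with percentiles among shared regions. Width and fold of a peak come from the same pileup, so the choice by fold also bears on width and no test of the difference is given. Whether width adds to fold was not tested.

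The merged regions themselves were of ordinary size. Their median width was 208 bp with quartiles of 163 and 277 bp, against 235 bp for all shared regions and 239 bp for the reverse set. The widest, on chromosome 23 at 66915 to 67799, spanned 885 bp and had folds of 17.3 and 15.4 in GFP-positive libraries and 3.41 and 4.90 in GFP-negative libraries, from peaks that had no base in common. The narrowest, on chromosome 14 at 43986065 to 43986130, spanned 66 bp and had folds of 7.14 and 11.7 in GFP-positive and 3.41 and 4.49 in GFP-negative libraries. In 566 regions (87.2%) each list contributed a single peak, against 81.5% of shared regions.

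Joining peaks does not require that they all cover 1 position. The strongest peaks of the 4 lists shared at least 1 bp in 521 of the 649 regions (80.3%), against 92.6% of all shared regions. This deficit depended on the scale, as the share was 94.4% with equal numbers of peaks, against 95.9% of all shared regions, and 92.5% with percentiles among shared regions, against 92.6%. In the 649 regions it lay mostly in the GFP-negative libraries. Both GFP-positive peaks overlapped in 643 regions (99.1%) and both GFP-negative peaks in 559 (86.1%), and over all shared regions these shares were 97.1% and 98.5%. Their midpoints were a median of 19 bp apart between GFP-positive libraries and 34 bp apart between GFP-negative libraries. In the reverse set both GFP-positive peaks overlapped in 88.1% of the regions and both GFP-negative peaks in 99.0%. In 128 kept regions the 4 strongest peaks therefore had no position in common, and the 4 values there do not describe 1 common site.

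The kept regions were spread over all 25 chromosomes, with 7 on chromosome 25 to 39 on chromosome 5. As a share of the shared regions of the chromosome, they were most frequent on chromosome 4 (38 of 4614, 0.824%), chromosome 14 (0.811%) and chromosome 9 (0.801%), and least frequent on chromosome 25 (0.226%) and chromosome 23 (0.365%). On chromosome 4, whose long arm is known in zebrafish for its repeats, 19 lay in the first 30 Mb (0.750% of shared regions) and 19 beyond (0.913%). Whether repeated sequence affected the calls there was not tested.

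Another kept region lay within 10 kb of 18 kept regions (2.77%), against 1.42% of the other shared regions. The median distance to the nearest other kept region was 671 kb, against 736 kb from the other shared regions to a kept one. With a library left out the kept sets were larger, and the shares were 4.55% against 2.02% of the other shared regions without GFP-positive replicate 1, 8.21% against 7.60% without GFP-positive replicate 2, 11.6% against 9.42% without GFP-negative replicate 1 and 9.56% against 6.98% without GFP-negative replicate 2. Of the 612 windows of 100 kb that held a kept region, 33 held 2 and a pair of windows held 3. The first lay on chromosome 6 from 39200001 to 39300000, where 3 of 13 shared regions were kept, at 39240532 to 39240954, 39248038 to 39248133 and 39265091 to 39265307. The folds of the first of these were 10.7 and 14.5 in GFP-positive libraries, against 4.17 and 3.67 in GFP-negative libraries. The second window lay on chromosome 9 from 22900001 to 23000000, where 3 of 8 shared regions were kept, at 22968285 to 22968516, 22985059 to 22985708 and 22998892 to 22999006. Here the middle region was the strongest, with folds of 20.4 and 19.2 in GFP-positive libraries and 4.93 and 5.31 in GFP-negative libraries, and a region called in both GFP-positive lists and in neither GFP-negative list lay 311 bp away.

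Regions called only in GFP-positive lists could not be kept by the rule, which considers shared regions alone. Their peaks did enter the percentiles, which were ranks over each whole list. There were 10906 regions called in both GFP-positive lists and in neither GFP-negative list. One of them lay within 10 kb of 168 kept regions (25.9%), against 16.5% of all shared regions and 14.1% of the reverse set. The median distance to the nearest was 29.6 kb for kept regions and 42.6 kb for all shared regions. For the 39772 regions called only in both GFP-negative lists the shares ran the other way, with 286 kept regions (44.1%) within 10 kb, against 49.9% of all shared regions and 53.5% of the reverse set. Of the 649 regions, 104 lay near a GFP-positive-only region alone, 222 near a GFP-negative-only region alone, 64 near both and 259 near neither. These regions were called from the same 4 libraries, and the difference between the shares was not tested. With 1 list fewer to define them, GFP-positive-only regions were more numerous, and the shares lay closer together. They were 47.5% of kept regions against 41.7% of all shared regions without GFP-positive replicate 1, 81.3% against 78.6% without GFP-positive replicate 2, 38.8% against 32.4% without GFP-negative replicate 1 and 32.0% against 25.5% without GFP-negative replicate 2.

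Other shared regions within 5 kb of the kept ones had median differences nearer to 0 than shared regions between 5 and 500 kb away. Leaving out the kept and the reverse regions, the median GFP-positive minus GFP-negative mean percentile was -2.33 points for the 211 shared regions within 1 kb of a kept region and -2.52 points for the 644 between 1 and 5 kb. It was -5.26 points between 5 and 10 kb, -4.74 points between 10 and 50 kb and -4.96 points between 50 and 100 kb. Between 100 and 500 kb it was -5.43 points. The median of all shared regions, with the kept and the reverse regions included, was -6.01 points. Both GFP-positive ranks were the higher ones in 12.8% of the regions within 1 kb and in 6.26% of those between 100 and 500 kb. Around the reverse regions the median was -7.16 points within 1 kb and -4.91 points between 100 and 500 kb. Within 500 kb the change of the median with distance was thus a few points, smaller than the spread between the quartiles of every distance class. Shared regions farther than 500 kb away were not placed in a class. The median distance from the other shared regions to a kept one was 736 kb, so most of them were left out around the kept regions.

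**Figure D5:**
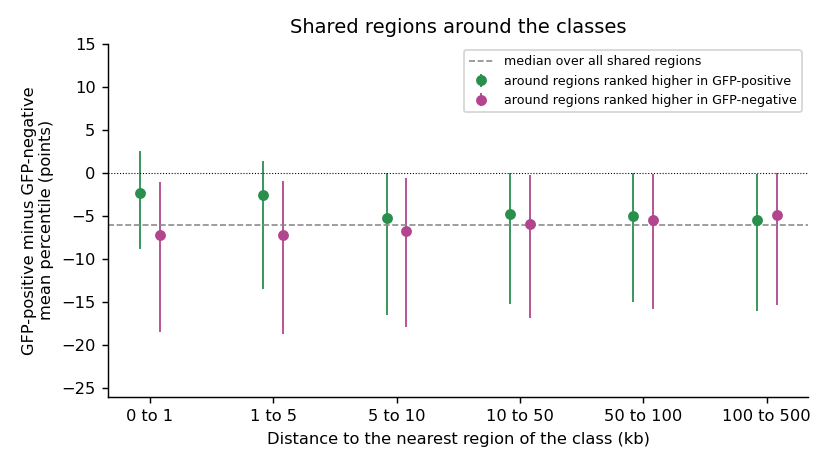
GFP-positive minus GFP-negative mean percentile of other shared regions by their distance to the nearest kept region (green) or reverse region (purple). Points are medians and bars span the quartiles of the regions. The dashed line is the median of all shared regions, kept and reverse ones included (-6.01 points), and the dotted line is 0. The green median is -2.33 points within 1 kb and -5.43 points between 100 and 500 kb, and the bars of both classes overlap at every distance shown.

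The claudin gene cldne, which encodes a tight junction protein and around which the study places 5 regulatory elements on chromosome 15, offered a check of the labels. None of the elements held a kept region, and the nearest kept region was 2.12 to 2.14 Mb away. At each element a region was called in both GFP-positive lists, and none had peaks in all 4 lists. The region at the element farthest upstream had folds of 11.7 and 19.2 in GFP-positive libraries, against 3.41 in GFP-negative replicate 1 and no peak in GFP-negative replicate 2. The study chose these elements with the same libraries in view, so they are not independent evidence for the labels, and they fall outside the shared regions because a peak is missing in at least 1 GFP-negative list.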

How the data were processed

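The authors trimmed the reads, mapped them with Bowtie 2, removed duplicates, kept fragments under 100 bp and called peaks with MACS2 2.1.1 in each library separately, with a tag extension of 54 bp and no local background. The submitters' processing notes name Trimmomatic 0.35 and the build danRer10, whereas the study's methods name danRer7, and the chromosome ends and the cldne positions in the files fit danRer7, which is used here. Each deposited list holds positions and 1 unnamed value per peak, read as a ratio, the fold enrichment over the library's own background. Within each list, values were whole multiples of a single step (tolerance 0.02 steps). From the steps, implied depths were 24915287 and 29455697 tags in GFP-positive and 42446900 and 37589485 tags in GFP-negative libraries. Reads were not used, and no counting interval was computed from the implied tags. The authors' own differential test needs reads and was not run, and the regions it called were not compared with the kept ones.

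Regions were merged at 1 bp of overlap, and percentiles were average ranks within a list. Groups and replicate numbers came from the labels. The series' design text describes 2 batches from separate crosses, each giving both cell populations, but nothing says that a replicate number marks a batch. Regions named are the 6 with the largest gap, the 6 with the highest lower GFP-positive percentile, the 6 with the largest fold ratio (several qualify more than once), 3 on each side of the limit, those in the fullest 100 kb windows, the widest, the narrowest and those at cldne. The regions, lists and rules were chosen with earlier results of these data known. Gene annotation, sequences and motifs were not analysed here. The steps were tested on simulated lists. Alternatives were another overlap, a width of 200 bp, the upper 50% of each list, equal numbers of peaks, other percentile references, gaps and distances, scaled folds, a replicate block and each library left out. Software was Python 3.11.15 with scipy 1.17.1, pandas 2.3.3 and numpy 2.4.6; figures were drawn in matplotlib 3.10.9.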

Additional observations from a re-analysis of the deposited data

How the results depend on the processing

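The count of 649 regions stayed within 1.5 times under an overlap of 50% of the shorter peak (615), a fixed width of 200 bp (680) and the widest peak in place of the strongest (685), and it was 521 when the 4 strongest peaks had to share 1 bp, an alternative chosen after seeing the data. It was 330 in the upper 50% of each list and 1457 with equal numbers of peaks (1.70% of 85573 shared regions). With percentiles among shared regions it was 3245 (2.93%). It was 1506 and 272 at gaps of 15 and 35 points, and 1254 by a scaled fold ratio of 2 or more (396 of them among the 649). With 1 tag moved against the difference, a setting also chosen after seeing the data, it was 217. The reverse count of 4574 became 2115 with equal numbers of peaks (2.47% of 85573 shared regions). It became 10014 and 2043 at gaps of 15 and 35 points, and 1906 with 1 tag moved. Under the other settings that kept all 4 libraries the reverse count stayed within 1.5 times.

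With the replicate block, which compares libraries of the same number, 1031 regions passed, and 6570 in the reverse direction. Deviations of same-numbered libraries from their group means had a correlation of 0.046 across regions, so the numbers were not shown to pair the libraries.

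Leaving out each library in turn, with peaks needed in the other 3 lists, gave 967 to 4792 regions, and 6384 to 26235 in the reverse direction. The counts were 967 (0.811% of shared regions) without GFP-positive replicate 1 and 4031 (2.68%) without GFP-positive replicate 2. They were 4792 (4.07%) without GFP-negative replicate 1 and 3513 (2.87%) without GFP-negative replicate 2. The median width was then 166 to 174 bp. A common base, asked of 3 peaks only, was found in 86.2% to 93.6%, against 94.3% to 95.9% of all shared regions. The share near another kept region was 4.55% to 11.6%, against 2.02% to 9.42% of the other shared regions. The share near a GFP-positive-only region was 32.0% to 81.3%, against 25.5% to 78.6% of all shared regions.

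Under an overlap of 50%, the share with a common base was 85.2%. In the upper 50% of each list, 53.2% of regions chosen in replicate 1 kept their sign in replicate 2. Of those chosen in replicate 2, 59.8% kept it in replicate 1. In that setting the median width was 246 bp and 92.7% had a common base. For this setting and for the overlap of 50%, the shares over all shared regions were not computed, so these shares have no background beside them. With equal numbers of peaks, the held-out shares were 67.8% and 68.7% (47.9% of all shared regions), the median width 220 bp, and the shares 94.4% with a common base, 5.28% near another kept region (3.31% of the other shared regions) and 33.5% near a GFP-positive-only region (23.5% of all shared regions). With percentiles among shared regions, the held-out shares were 73.1% and 72.7%, the median width 227 bp, and the shares 92.5% with a common base and 12.7% near another kept region (6.56% of the other shared regions). Within 50 kb, 10.02% had another kept region, against 5.74% of the other shared regions, and 63.9% a GFP-positive-only region, against 55.1% of all shared regions. The difference in width percentile was 13.3 to 27.3 points under 4 alternatives added after seeing the data. The causes were not tested.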
